A study of Mus musculus with 44 samples.

Results

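The mouse mitochondrial genome carries 13 protein-coding genes, and 10 of them were examined here in liver and skeletal muscle: mt-Nd1, mt-Nd2, mt-Nd4, mt-Nd5, mt-Nd6, mt-Cytb, mt-Co1, mt-Co2, mt-Co3 and mt-Atp6. They were chosen by name, and their symbols were matched to the Ensembl identifiers of the deposited tables through the GENCODE M21 annotation. All 10 were among the 38202 genes listed, but reads were counted on only 7 of them. RNA-Seq of poly(A)-selected RNA had been performed on both tissues of 22 male mice, 11 WT and 11 Slc16a13 KO littermates on a C57BL/6N background, which gave 44 libraries in 4 groups of 11. The KO mice carried a constitutive CRISPR/Cas9 deletion of the promoter and first exons of Slc16a13, which encodes a monocarboxylate transporter. Every mouse, WT or KO, had been on HFD for 15 weeks and was 20 weeks old.

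Each library held between 20150712 and 35218243 counted reads. In liver the deleted gene had 99 to 302 reads in WT and 0 to 8 in KO libraries. In muscle it had 4 to 22 reads in WT libraries and 11 to 40 in those labelled KO, against the label, and these are therefore called the muscle libraries labelled KO. Summed hepatocyte markers took 10.5 to 14.5% of liver reads and at most 0.00603% of muscle reads, and summed skeletal muscle fibre markers took 17.9 to 25.9% of muscle reads and at most 0.00807% of liver reads. Across genes outside the mitochondrial genome, 4 KO livers had fewer reads on long genes than the rest. The log2 CPM of each gene was taken relative to its mean over all libraries of the same tissue. Per doubling of length this difference changed by -0.54, -0.42, -0.25 and -0.08 in these livers and by 0.04 to 0.10 in WT livers. Muscle libraries, taken relative to the muscle mean, had -0.07 to 0.05, which is not on the scale of liver. The 4 KO livers came from animals 532, 602, 583 and 611 and are called the KO livers set apart. Liver results are given with and without them.

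Mitochondrial DNA is transcribed as long polycistronic RNAs from both strands. The tRNAs that lie between the coding sequences are cut out, which releases the single mRNAs and the rRNAs, and most of the mRNAs then receive a poly(A) tail. The proteins they encode are core subunits of the respiratory chain and of the ATP synthase, which are otherwise built from nuclear-encoded subunits, and the levels of the mature RNAs differ because each is stabilized and degraded at its own rate.

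Of the 10 genes, 5 encode subunits of complex I, the NADH dehydrogenase: mt-Nd1 (ENSMUSG00000064341, chrM:2751-3707 in GRCm38), mt-Nd2 (ENSMUSG00000064345, chrM:3914-4951), mt-Nd4 (ENSMUSG00000064363, chrM:10167-11544), mt-Nd5 (ENSMUSG00000064367, chrM:11742-13565) and mt-Nd6 (ENSMUSG00000064368, chrM:13552-14070). mt-Cytb (ENSMUSG00000064370, chrM:14145-15288) encodes cytochrome b, the mitochondrially encoded subunit of complex III. The catalytic core of complex IV, cytochrome c oxidase, is encoded by mt-Co1 (ENSMUSG00000064351, chrM:5328-6872), mt-Co2 (ENSMUSG00000064354, chrM:7013-7696) and mt-Co3 (ENSMUSG00000064358, chrM:8607-9390). mt-Atp6 (ENSMUSG00000064357, chrM:7927-8607) encodes a subunit of the proton channel of complex V, the ATP synthase. Each gene is annotated as 1 exon without introns, and only mt-Nd6 lies on the minus strand. Base composition followed the strand: the excess of G over C, as a percentage of both, was 65.0% in the mt-Nd6 transcript and between -55.3 and -19.2% in the other 9.

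mt-Nd5 and mt-Nd6 meet tail to tail and share 14 bases on opposite strands (chrM:13552-13565). The last 55 bases of each transcript are shown 5′ to 3′ as the annotation gives them, with the shared bases in capitals, because reads from this stretch can be assigned only by strand. The libraries were stranded, but whether the counting used the strand is not given in the sources used here.
mt-Nd5: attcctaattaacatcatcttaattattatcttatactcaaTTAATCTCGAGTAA
mt-Nd6: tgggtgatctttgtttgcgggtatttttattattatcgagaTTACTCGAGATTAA

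The annotated ends of 3 transcripts, mt-Nd4, mt-Cytb and mt-Co3, stop 1 base into the last codon, a lone T. In mitochondria the A residues of the tail complete such a stop codon. The last 21 bases of these 3, and of mt-Nd1 with its full stop codon, are shown with the last codon or the part of it in capitals.
mt-Nd4: taattacaggcctgacaataT
mt-Cytb: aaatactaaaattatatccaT
mt-Co3: ccatttattgatgaggatctT
mt-Nd1: ggagtaccaccatacataTAG

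mt-Co2, mt-Co3 and mt-Atp6 were listed at 0 in all 44 libraries, in the count table and in the RPKM table. A count of 0 allows up to 3 counts per library, which is 0.085 CPM (counts scaled to the counted reads of the library) in the deepest and 0.149 CPM in the shallowest library, for counting error only. In contrast, mt-Cytb had at least 169295 reads and mt-Co1 at least 171741 reads in every library. mt-Atp8, mt-Nd3 and mt-Nd4l, the remaining protein-coding genes of this genome, were at 0 as well, as were its 22 tRNA genes, while the rRNA genes mt-Rnr1 and mt-Rnr2 had reads in all libraries. These zeros therefore describe the table. No level, share or difference is given for the 3 genes.

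The 6 uncounted protein-coding genes lie side by side, and 5 of them have annotated copies in the nuclear genome. GENCODE M21 annotates 7 unprocessed pseudogenes on the minus strand of chromosome 1 (chr1:24611535-24616197, 4663 bases) that match chrM:6381-11042, a stretch of 4662 bases. Gm28661 was identical to mt-Co2 over 681 bases, Gm10925 to mt-Atp6 over 678 bases and Gm28437 to mt-Co3 over 783 bases. The first 85 bases of each gene, the length of 1 read, are shown with the start codon in capitals, because the same letters open the nuclear copy.
mt-Co2 (chrM:7013-7097): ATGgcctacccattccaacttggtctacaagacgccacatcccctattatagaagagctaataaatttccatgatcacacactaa
mt-Atp6 (chrM:7927-8011): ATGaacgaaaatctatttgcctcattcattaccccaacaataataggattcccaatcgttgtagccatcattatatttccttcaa
mt-Co3 (chrM:8607-8691): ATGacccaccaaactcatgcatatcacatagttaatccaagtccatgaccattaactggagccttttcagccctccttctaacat

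The copied stretch begins inside mt-Co1 and ends inside mt-Nd4, both of which had reads. Gm28439 was identical to the first 876 bases of mt-Nd4, so that the copy covers the 5′ part of this mRNA. Its edge is shown in 85 bases of mt-Nd4, with the bases that are also in the copy in capitals.
mt-Nd4 (chrM:11003-11087): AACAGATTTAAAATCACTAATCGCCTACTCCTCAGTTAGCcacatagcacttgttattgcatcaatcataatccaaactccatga
At the other edge, Gm29216 was 98.8% identical to the last 492 bases of mt-Co1. All 6 differences lie between positions 1056 and 1066 of mt-Co1, counted from its first base, and are in capitals in the first 85 bases of the copy and in the matching bases of the gene.
mt-Co1 (chrM:6381-6465): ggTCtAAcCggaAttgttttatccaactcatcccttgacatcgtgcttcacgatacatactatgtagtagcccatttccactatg
Gm29216: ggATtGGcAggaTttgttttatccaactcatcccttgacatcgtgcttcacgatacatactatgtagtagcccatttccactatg

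Every window of 85 bases was compared with all other annotated transcripts. An exact copy was found for 99.5% of the windows of mt-Co2, 99.5% of mt-Atp6, 99.9% of mt-Co3, 97.7% of mt-Nd3 and 98.6% of mt-Nd4l. It was found for 61.2% of the windows of mt-Nd4 and 35.3% of mt-Co1, for 4.7% of mt-Nd2 and 0.6% of mt-Nd5, and for 0% of mt-Nd1, mt-Nd6, mt-Cytb and both rRNAs. Besides Gm29216, mt-Co1 shares 150 windows between bases 88 and 1457 with another transcript, Gm13340, and the copied windows of mt-Nd2 and mt-Nd5 are in Gm13339 and Gm11407. The exception was mt-Atp8, which was at 0 although 0% of its windows had a copy in an annotated transcript. It begins in the interval between mt-Co2 and mt-Atp6, which is 233 bases long between the matching parts on both chromosomes. The nuclear interval holds no annotated copy. The last 43 bases of mt-Atp8 overlap mt-Atp6 and are in Gm10925, which is shorter than a window. Of the 7 pseudogenes only Gm10222, the copy of mt-Nd4l, is listed in the tables, at 0 in every library. How reads with more than 1 match were treated is not given in the sources used here, and its part in these zeros was not tested.

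**Figure D1:**
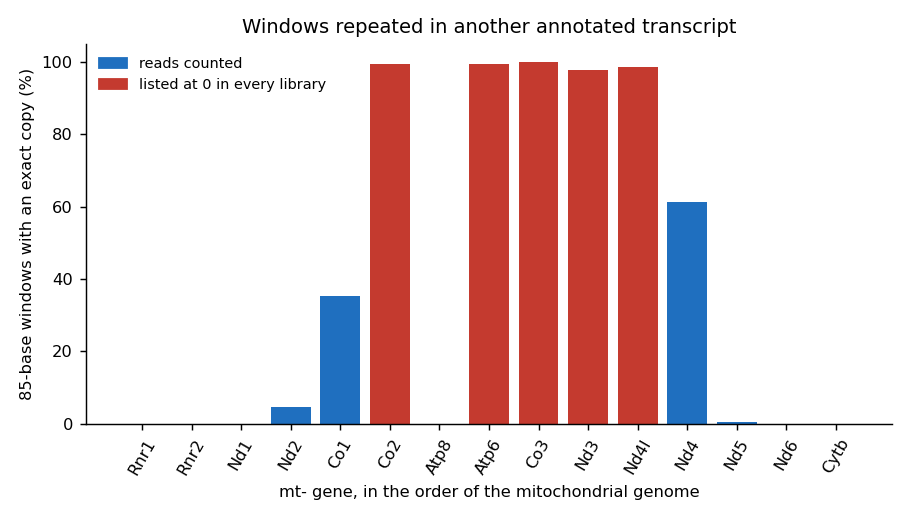
Share of the 85-base windows of each mitochondrial protein-coding and rRNA gene that occur exactly in another annotated transcript (y axis, percent), with genes in genome order and coloured by whether any reads were counted. Of the 6 genes at 0, 5 have copies of over 97% of their windows and mt-Atp8 has no copied window, while every counted gene lies at 61.2% or below.

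The 7 counted mRNAs were among the most abundant RNAs of both tissues. By mean CPM in WT liver, mt-Co1 ranked 2 of all 38202 genes, mt-Cytb 6, mt-Nd2 18, mt-Nd5 22, mt-Nd4 23, mt-Nd1 24 and mt-Nd6 93. In WT muscle mt-Co1 ranked 4, mt-Cytb 6, mt-Nd1 11 and mt-Nd6, again the lowest, 36.

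Levels of different genes were compared per length, as RPKM, the authors' counts scaled to gene length and library size. By group mean mt-Co1 led in all 4 groups, with 10764 ± 558 RPKM (SD, n = 11) in WT liver and 17421 ± 3007 RPKM in WT muscle. mt-Cytb followed with 9839 ± 803 RPKM in WT liver and 16085 ± 2847 RPKM in WT muscle. Within a WT liver mt-Co1 exceeded mt-Cytb in 10 of 11 mice, and the ranges of both overlapped.

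The complex I mRNAs were lower per length than mt-Co1 and mt-Cytb. In WT liver mt-Nd2 (5711 ± 707 RPKM, n = 11) lay above mt-Nd1 (5016 ± 392 RPKM) in 11 of 11 mice with overlapping ranges. mt-Nd4 came next with 3491 ± 230 RPKM, below every value of mt-Nd1 and above every value of mt-Nd6 (2737 ± 198 RPKM). mt-Nd6 and mt-Nd5 (2658 ± 143 RPKM) could not be ordered, since mt-Nd6 was the higher of them in 7 of 11 mice. The order in WT muscle was the same except that mt-Nd1, at 13205 ± 2153 RPKM, was above mt-Nd2, at 9281 ± 1646 RPKM, in 11 of 11 mice. mt-Nd6, from the other strand, was the higher one of the lowest pair in muscle too, in 10 of 11 mice. It had 5497 ± 785 RPKM against 5252 ± 813 RPKM for mt-Nd5. The libraries were selected for poly(A), and whether mt-Nd6 and the other mRNAs were captured alike was not tested. By group means the muscle libraries labelled KO had the order of WT muscle, and the KO livers that of WT liver. Within a KO liver mt-Co1 exceeded mt-Cytb in 7 of 11 mice, and mt-Nd2 exceeded mt-Nd1 in 8 of 11. In the livers set apart the mean of mt-Cytb, 7650 RPKM, was above that of mt-Co1, 6700 RPKM. In the other 7 KO livers mt-Cytb was below mt-Co1, at 9398 against 10615 RPKM.

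Part of this order depends on the sequence that can be counted. Per kilobase of windows without a copy, mt-Co1 in WT liver rose above every value of mt-Cytb, at 17600 against 10619 CPM per kilobase. mt-Nd4, with only 502 such windows, moved from the fifth place to the third, at 9584 CPM per kilobase and above mt-Nd2 in 11 of 11 mice. In WT muscle it stood at 17531 CPM per kilobase beside mt-Cytb at 17361, and was the higher of both in 9 of 11 mice. This scale assumes that no read with an exact copy was counted, which was not tested.

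**Figure D2:**
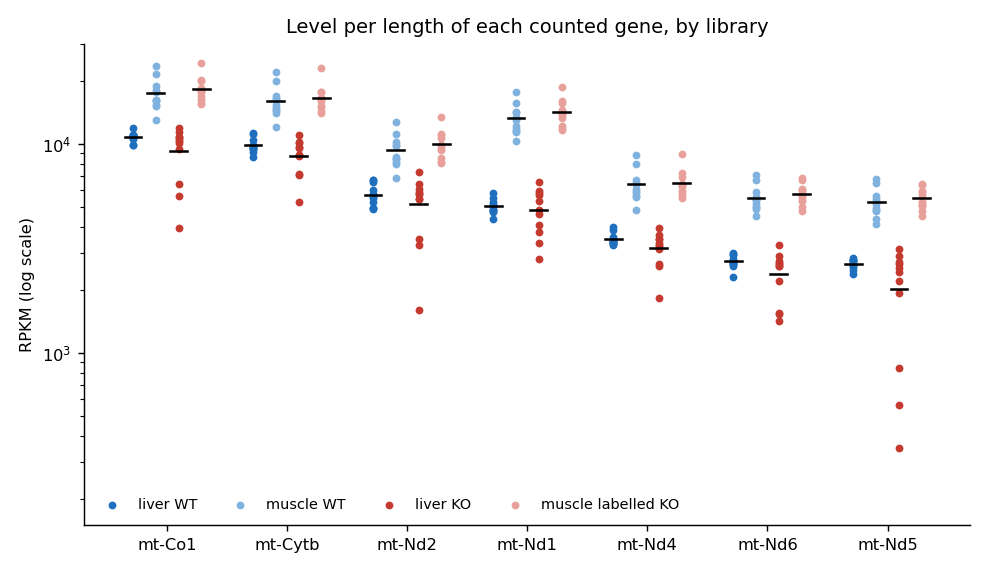
RPKM of the 7 counted mRNAs (y axis, log scale) in each of the 44 libraries, by group, with a bar at each group mean. Muscle lies above liver for every gene, and the lowest KO livers spread furthest below the others for mt-Nd5, down to 348 RPKM.

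The tissue difference was the main difference in these transcripts, and it was asked first in the 11 WT mice. All 7 counted mRNAs were lower in liver than in muscle, by 1.58-fold to 2.57-fold. Among all 13907 genes tested, 45.5% were lower in liver at an adjusted p under 0.05 (quasi-likelihood test of edgeR, adjusted by Benjamini-Hochberg over all genes), so a lower level was in itself common. The CPM ranges of liver and muscle did not overlap for any of the 7, which held for 35.6% of all genes in this direction.

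mt-Nd1 differed most. It had 4190 to 5537 CPM in WT liver (median 4768) and 9897 to 16945 CPM in WT muscle (median 12413). The difference of liver from muscle was -1.36 on the log2 scale (SE 0.09, edgeR adjusted p = 2.7e-13). Within a mouse, muscle held 2.28 to 3.38 times the liver CPM, and this ratio was larger for mt-Nd1 than for each of the other 6 mRNAs in 11 of 11 WT mice.

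Of the other complex I mRNAs, mt-Nd6 and mt-Nd5 differed by nearly 1 on the log2 scale. mt-Nd6 had 1197 to 1557 CPM in WT liver (median 1413) and 2335 to 3677 CPM in WT muscle (median 2783), a log2 difference of -0.97 (SE 0.07). mt-Nd5 had 4319 to 5195 CPM (median 4866) against 7544 to 12414 CPM (median 9340), a log2 difference of -0.95 (SE 0.08). For mt-Nd4 the ranges were 4528 to 5499 CPM (median 4684) in liver and 6618 to 12171 CPM (median 8386) in muscle, a log2 difference of -0.84 (SE 0.09). The smallest gap between the ranges of a complex I gene was that of mt-Nd2, with up to 6993 CPM in liver (lowest 5075, median 5783) and at least 7106 CPM in muscle (median 8991, highest 13192). Its log2 difference was -0.66 (SE 0.10, edgeR adjusted p = 1.7e-06).

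The most abundant mRNAs, mt-Cytb and mt-Co1, differed about as little as mt-Nd2. mt-Cytb had 9883 to 12920 CPM in WT liver (median 11072) and 13715 to 25283 CPM in WT muscle (median 17461), a log2 difference of -0.68 (SE 0.10). mt-Co1 had 15278 to 18426 CPM (median 16708) against 20067 to 36338 CPM (median 25121), a log2 difference of -0.66 (SE 0.10, edgeR adjusted p = 2.1e-06). In both genotypes the highest muscle value of mt-Cytb and mt-Co1 came from the deepest library. With the trend on gene length removed, 5 of the 7 differences in WT mice were over 1.5 times larger, at -1.22 for mt-Co1, -1.14 for mt-Cytb, -1.07 for mt-Nd2, -1.37 for mt-Nd4 and -1.51 for mt-Nd5, while mt-Nd1 was at -1.72 and mt-Nd6 at -1.24.

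In the mice labelled KO the 7 mRNAs were again lower in liver, by -0.80 for mt-Cytb to -1.44 for mt-Nd1 on the log2 scale, and the ranges did not overlap. Of all 13981 genes, 42.8% were called lower and the ranges of 33.7% did not overlap in this direction. Within these mice the ratio of muscle to liver CPM was larger for mt-Nd1 than for mt-Nd5 in only 7 of 11. It was larger than for mt-Nd2 and mt-Nd6 in 10 of 11, and than for mt-Nd4, mt-Cytb and mt-Co1 in 11 of 11. mt-Nd5 differed by -1.34 (SE 0.26) with all livers and by -0.95 (SE 0.09) without the KO livers set apart, which moved it more than any other of the 7. Without them all 7 were still called, between -0.62 for mt-Nd2 and -1.32 for mt-Nd1, where 45.0% of all genes were called lower. With mouse as replicate block all 7 were called in both genotypes. Both tissues were compared relative to all genes, and fewer cells of a type and less RNA per cell cannot be told apart in bulk tissue.

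**Figure D3:**
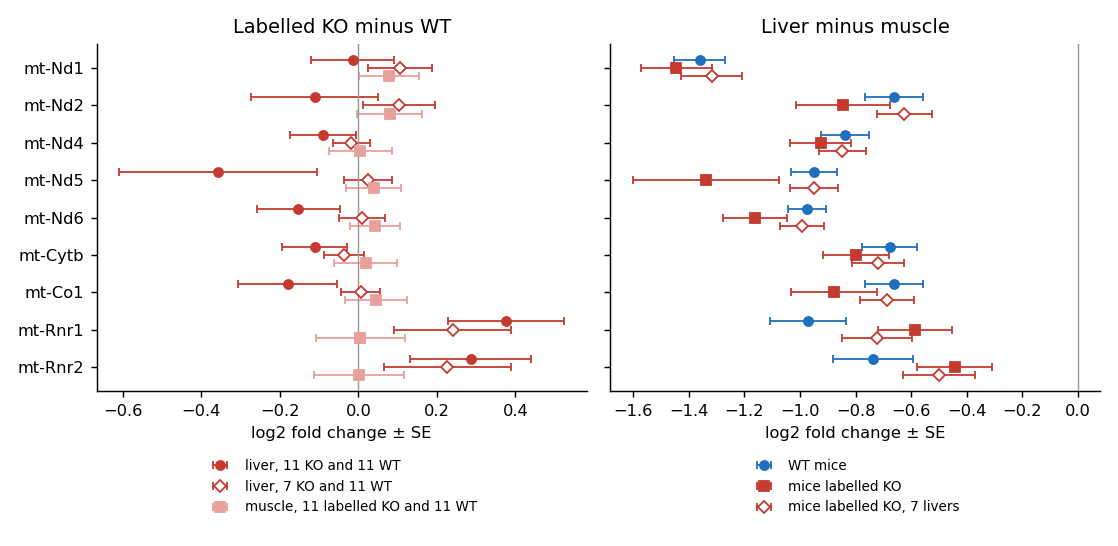
Log2 fold changes with their SE for the 7 counted mRNAs and the rRNAs, labelled KO minus WT on the left and liver minus muscle on the right, where open diamonds leave out the 4 KO livers set apart. On the right every point is below 0, with mt-Nd1 lowest in WT mice at -1.36, and on the left the mRNA points lie between -0.36 and 0.11.

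The rRNAs mt-Rnr1 and mt-Rnr2 come from the same strand as most of the mRNAs but were counted in a library selected for poly(A), so their counts do not measure their amount in the cell. They were lower in WT liver than in WT muscle too, by -0.97 (SE 0.14) and -0.74 (SE 0.14) on the log2 scale. Per 100 reads on the 7 mRNAs there were 2.30 ± 0.60 (SD, n = 11) rRNA reads in WT liver and 2.33 ± 0.34 in WT muscle.

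As a share of all counted reads, the 7 mRNAs took 4.97 ± 0.20% (SD, n = 11) in WT liver and 8.88 ± 1.5% in WT muscle. No p-value is given for these sums. WT livers lay within a narrow range, from 4.77 to 5.46% (median 4.90%), and WT muscles spread from 6.73 to 12.002% (median 8.30%). Muscle held 1.31 to 2.40 times the liver share of the same mouse, in 11 of 11 WT mice. The muscle libraries labelled KO took 9.29 ± 1.29%, from 7.78 to 12.3% (median 9.10%), and 10 of 11 lay within the WT range. The highest share of each genotype in muscle, 12.002% in WT animal 624 and 12.3% in animal 611 labelled KO, came from the deepest library of its group, with 33807727 and 35218243 counted reads, and the part of depth was not tested. Their livers held 5.01 and 5.11%.

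KO livers took 4.34 ± 1.13% of all reads, with a median of 4.83%. Of these 11, 5 lay below the WT range, 5 within it and 1 above it. The lowest were 3 of the livers set apart, at 2.04% in animal 532, 2.93% in animal 602 and 3.07% in animal 583, while the fourth, animal 611, had 5.11%. The other 7 KO livers took 4.94 ± 0.38% and ranged from 4.37 to 5.47%. The muscles of animals 532, 602 and 583 held 9.10, 8.59 and 7.95%, all within the WT muscle range.

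**Figure D4:**
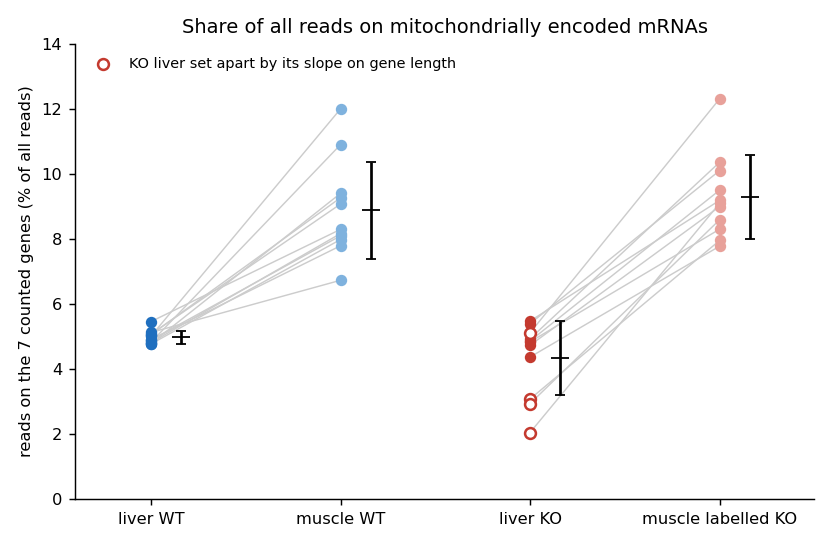
Reads on the 7 counted mRNAs as a percentage of all counted reads (y axis) in each library, with grey lines joining liver and muscle of a mouse, and the mean ± SD (n = 11) beside each group. Muscle is above liver in all 22 mice, and 3 of the 4 open circles, the KO livers set apart, lie at 2.04 to 3.07%, below all other livers.

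Within the reads of the 7 mRNAs, mt-Co1 held 33.5 ± 0.9% (SD, n = 11) in WT liver and 30.3 ± 0.4% in WT muscle, and mt-Cytb held 22.6 ± 1.3 and 20.7 ± 0.3%. mt-Nd1 held 8.18 to 10.9% in WT livers and 13.7 to 15.3% in WT muscles, without overlap. mt-Nd4 had nearly the same part in both tissues, 9.68 ± 0.38 and 9.90 ± 0.23%. mt-Nd6 held the least, 2.86 ± 0.19% in WT liver and 3.23 ± 0.15% in WT muscle, and the part of poly(A) selection in this was not tested. In muscle libraries labelled KO, mt-Nd1 held 14.6 ± 0.3% against 14.2 ± 0.5% in WT muscle, and mt-Co1 30.3 ± 0.2% against 30.3 ± 0.4%. mt-Nd4 held 9.65 ± 0.24% in them, which was below the WT mean by slightly more than the SD. The ranges of both muscle groups overlapped for each of the 7.

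The question of genotype was asked in each tissue with 11 libraries a group. In liver none of the 7 mRNAs passed the test: 0 had an adjusted p under 0.05 with edgeR, 0 with DESeq2 and 0 with limma-voom, and 0 had an unadjusted edgeR p under 0.05. Of all 13005 genes, 0.0231% were called and 12.9% had an unadjusted p under 0.05. All 7 estimates of KO minus WT were below 0, from -0.01 to -0.36 on the log2 scale with a median of -0.11, where the median of all genes was -0.01.

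mt-Nd5 had the largest of these estimates. Its CPM ranged from 635 to 5739 in KO livers (median 4446) and from 4319 to 5195 in WT livers (median 4866). Of the KO livers, 5 were below the WT range and 2 above it, and the 4 lowest were the livers set apart. The log2 fold change was -0.36 (SE 0.25, edgeR adjusted p = 0.44), and 2 SE on either side reached from -0.86 to 0.15. By limma-voom it was -0.61 (adjusted p = 0.36). Without the livers set apart it was 0.02 (SE 0.06), and 2 SE reached from -0.10 to 0.14.

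mt-Co1, with 6111 to 18300 CPM in KO livers (median 15915) against 15278 to 18426 CPM in WT livers, had a log2 fold change of -0.18 (SE 0.13, edgeR adjusted p = 0.44). For mt-Nd6 it was -0.15 (SE 0.11), for mt-Nd2 -0.11 (SE 0.16), for mt-Cytb -0.11 (SE 0.08), for mt-Nd4 -0.09 (SE 0.08) and for mt-Nd1 -0.01 (SE 0.11). Without the livers set apart the 7 estimates lay between -0.04 for mt-Cytb and 0.11 for mt-Nd1, with a median of 0.01, and 0 were called, against 0.0227% of all genes. The widest interval of 2 SE then reached from -0.08 to 0.29, for mt-Nd2.

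The livers set apart did not lose all mRNAs alike. mt-Nd5, the longest at 1824 bases, stood at 13.1% of the WT liver mean in animal 532, 21.2% in animal 602, 31.7% in animal 583 and 72.3% in animal 611, and all 4 were below every WT liver. mt-Co1 (1545 bases) stood at 36.7, 52.4 and 59.3% in the first 3, mt-Nd2 (1038 bases) at 28.2, 57.6 and 61.0%, and mt-Nd4 (1378 bases) at 52.2, 76.0 and 74.2%. The shortest, mt-Nd6 (519 bases), stood at 56.5, 55.9 and 51.7%. Levels therefore did not follow length gene by gene, since mt-Nd2 was further below the WT mean than the longer mt-Cytb in each of these 3 livers. In animal 611 only mt-Nd5 was below the WT range, and the other 6 stood at 100 to 113% of the WT mean.

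Within the reads of the 7 mRNAs, mt-Nd5 held 3.11 to 6.85% in the livers set apart and 8.92 to 10.5% in WT livers. mt-Nd4 held 10.7 to 12.5% in them against 8.93 to 10.4% in WT livers, also without overlap. The sequence without a copy lies in the 3′ part of mt-Nd4 and before base 1067 of mt-Co1, where Gm13340 shares some windows too. In 3 of these livers there were more rRNA reads per 100 mRNA reads than in any WT liver, with 5.74 in animal 532, 6.50 in animal 602 and 5.06 in animal 583, against 1.58 to 3.52 in WT livers. Animal 611, at 2.13, lay within the WT range. Other values moved with the same 4 livers. Summed erythroid markers took 0.0392 to 0.0502% of their reads and 0.0227 to 0.0339% in WT livers. Summed endothelial markers took 0.0124 to 0.0184% against 0.0186 to 0.0219%, with all 5 markers of each list detected. The sums of all other marker lists, hepatocyte and macrophage markers included, overlapped the WT liver range. The authors describe the RNA quality of all samples as high by RNA integrity values. The part of cell types and of RNA quality in the mRNA levels, and of gene length in the marker sums, was not tested.

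**Figure D5:**
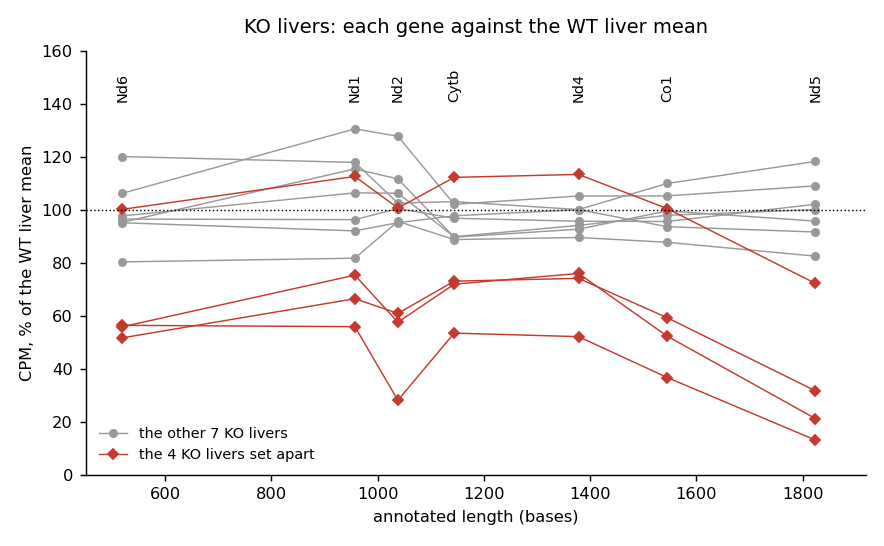
CPM of each counted mRNA in the 11 KO livers as a percentage of the WT liver mean (y axis), against annotated length in bases (x axis), with 1 line per liver and the KO livers set apart in red. The red lines drop towards mt-Nd5, to between 13.1 and 72.3%, while the other 7 livers stay between 80.4 and 131% for every gene.

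In muscle the genotypes differed less than the mice within a genotype. All 7 estimates of labelled KO minus WT lay between 0.01 for mt-Nd4 and 0.08 for mt-Nd2 and mt-Nd1, with SE of 0.06 to 0.08, and the ranges overlapped for each gene. By edgeR, DESeq2 and limma-voom 0 of 7 passed, 0 had an unadjusted edgeR p under 0.05, and edgeR adjusted p lay between 0.80 and 0.99. Of all 13266 genes, 0.00754% were called and 8.58% had an unadjusted p under 0.05. mt-Co1 had 20067 to 36338 CPM in WT muscle and 23837 to 37562 CPM (median 27687) in the libraries labelled KO. For mt-Nd1 the libraries labelled KO had 11093 to 17956 CPM (median 13323), and 2 SE around its difference of 0.08 reached from -0.08 to 0.23. Markers of slow and cardiac fibres, summed, had medians of 0.000338% of the reads in WT muscle and 0.000325% in the libraries labelled KO. Their lowest values were 8.0e-06 and 2.0e-05%, and their highest were 0.0137 and 0.00115%. Gene by gene, all 5 estimates of labelled KO minus WT were below 0, from -0.32 to -3.60 on the log2 scale. By edgeR 0 of them were called and 4 had an unadjusted p under 0.05, beside 8.58% of all genes. In both groups 5 of 5 of these markers were detected, and their part was not tested.

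Whether the genotype difference was another one in liver than in muscle was tested as an interaction over all 44 libraries. By edgeR, DESeq2 and limma-voom 0 of the 7 mRNAs passed, and 0 had an unadjusted edgeR p under 0.05, while 0.00678% of all 14739 genes were called and 16.2% had an unadjusted p under 0.05. The estimates ran from -0.09 for mt-Nd1 and mt-Nd4 to -0.39 for mt-Nd5 (SE 0.27, edgeR adjusted p = 0.44). Without the livers set apart they lay between -0.06 and 0.03, and 0 were called, against 0.0133% of all genes.

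The rRNAs had positive estimates in liver, 0.38 for mt-Rnr1 (SE 0.15) and 0.29 for mt-Rnr2 (SE 0.15), and neither passed (edgeR adjusted p = 0.38 and 0.39). mt-Rnr1 had 273 to 552 CPM in WT livers and 329 to 686 CPM in KO livers, with overlap, and 1 of both had an unadjusted p under 0.05. Without the livers set apart the estimates were 0.24 and 0.23. In muscle they were 0.00 for both (SE 0.11 and 0.12).

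The nuclear-encoded subunits of the same complexes, which are imported into mitochondria, were lower in liver than in muscle as well. In WT mice 71 of 77 tested subunits were called lower and 4 higher, with a median of -0.65 where that of all genes was 0.00. All 36 of complex I were lower, with 8 of 9 of complex III, 11 of 14 of complex IV, 13 of 14 of complex V and 3 of 4 of complex II, the complex with no mitochondrially encoded subunit. These shares stand beside 45.5% of all genes in each direction. In the mice labelled KO 42 of 77 were lower and 6 higher, beside 42.8% of all genes lower and 43.9% higher. Leaving out the livers set apart, 68 were lower and 4 higher, beside 45.0% lower and 43.7% higher. The 7 mitochondrial mRNAs stayed at 7 of 7 in both.

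For genotype in liver the nuclear subunits and the mitochondrial mRNAs had estimates of opposite sign. Of 75 nuclear subunits 73 were above 0 with a median of 0.28, 0 passed by edgeR and 35 had an unadjusted p under 0.05, beside 12.9% of all genes. With the trend on gene length removed the median was 0.04, and 55 of 75 were above 0. Of the 7 mRNAs 7 were below 0 with a median of -0.11. Without the livers set apart the medians were -0.04 for the nuclear subunits and 0.01 for the mRNAs. Of the 75 nuclear subunits 68 were then below 0 and 7 above it. By edgeR 0 passed and 12 had an unadjusted p under 0.05, beside 2.96% of all genes. Of the 7 mRNAs 5 were above 0 and 2 below it. In muscle the nuclear subunits had a median of -0.05, with 74 of 77 below 0 and 3 above it. Of these 77, 0 were called and 11 had an unadjusted edgeR p under 0.05, beside 8.58% of all genes. The difference between both kinds of gene was not tested.

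Genes that copy, transcribe and process mitochondrial DNA and RNA went both ways between tissues. Of 44 tested, 22 were higher and 16 lower in WT liver than in WT muscle, beside 45.5% of all genes in each direction. Replication factors were 6 higher and 3 lower of 11, transcription factors 5 and 4 of 10, RNA processing factors 6 and 6 of 14, and factors of the RNA tail, stability and decay 5 and 3 of 9. For genotype 0 of 44 passed by edgeR in liver, with 4 at an unadjusted p under 0.05 beside 12.9% of all genes, and 0 of 44 in muscle, with 3 beside 8.58%.

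Among the factors with the smallest adjusted p, Polrmt, the mitochondrial RNA polymerase, had 16.1 to 20.6 CPM in WT liver and 31.5 to 42.2 CPM in WT muscle, a log2 difference of -0.92 (SE 0.06) and, with the trend on gene length removed, of -1.48. Tfb2m, which works with it at the promoter, had 5.79 to 8.22 CPM in liver and 12.1 to 15.2 CPM in muscle (log2 difference -0.85, SE 0.06). Fastk, an RNA-binding protein with a mitochondrial form, was lower by 4.81-fold, at 29.6 ± 2.2 CPM (SD, n = 11) against 145 ± 10 CPM, and Angel2 by 1.92-fold. Higher in liver were Hsd17b10, a subunit of mitochondrial RNase P and an enzyme of isoleucine breakdown, at 377 ± 27 CPM against 40.02 ± 1.85 CPM, and Dna2, a nuclease and helicase of replication, at 7.28 ± 0.70 against 0.97 ± 0.20 CPM. Pnpt1, a polynucleotide phosphorylase that degrades mitochondrial RNA, was higher by 1.62-fold and Fastkd1 by 1.64-fold.

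Across the 44 libraries, with group means taken off, the genes outside the mitochondrial genome whose log2 CPM ran most like the summed mRNAs included Uhrf1bp1l (Pearson's r = 0.93), Tjp1 (0.91), Chuk (0.91) and Itgb1 (0.90), out of 10417 genes searched. These values are a description. Without the livers set apart they were 0.89, 0.84, 0.82 and 0.82, and within the 11 WT livers 0.44, 0.08, 0.69 and 0.09, while within the 11 WT muscles they lay between 0.79 and 0.85.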

How the data were processed

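RNA-Seq libraries of liver and skeletal muscle from 11 WT and 11 KO mice were used, grouped by the tissue, genotype and animal number in the labels, and both tissues of 1 animal were taken as a pair. The authors deposited raw counts per gene and, in a second table, RPKM values, which for the 7 counted mRNAs equal the count scaled to all counted reads and to the annotated gene length. The tool limma is named in the submitters' notes, and the aligner, counter, build and annotation are not given in the sources used here. Symbols, positions and transcript sequences came from GENCODE M21 (GRCm38), which named 36340 of 38202 genes.

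Counts were tested in edgeR 4.0.16 (R 4.3.3; TMM, filterByExpr, quasi-likelihood test, p-values adjusted by Benjamini-Hochberg over all genes tested, threshold 0.05). Genotype was fitted within a tissue, tissue within a genotype, and their interaction over 44 libraries. SE is the log2 fold change divided by the root of F. Replicates are separate mice, and 0 pairs of libraries held identical counts. The test was checked on simulated counts with 200 changed genes, of which it recovered 99% (liver genotype, 13005 genes) and 98.5% (WT tissues, 13907 genes). It called 4 and 10 other genes as well. Recovery of differences as small as the genotype estimates of the 7 mRNAs, or with livers like those set apart, was not tested. Deviations from group means correlated with r = 0.11 on average between tissues of the same mouse (-0.04 to 0.27, 22 mice) and -0.01 between mice. Shares, composition and the order of levels were described without tests. KO livers were set apart when their slope on gene length fell below -0.02, the lowest WT liver minus the WT range.

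The genes named are the 10 members, the other mitochondrially encoded genes, the nuclear copies, Slc16a13, the 4 factors with the smallest adjusted p in each direction between WT tissues, and the 5 genes most like the summed mRNAs, of which 1 is not reported here. Members, lists and alternatives were chosen with earlier results of these data known. Alternatives were DESeq2 1.42.0, limma-voom 3.58.1, other scalings and filters, removal of gene length (loess, span 0.3), mouse as replicate block, other definitions of the shares, and libraries left out. Leaving out the mice with the deepest muscle libraries was added after seeing the data. Intervals of 2 SE and the floor of 3 counts cover only this spread and counting error.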

Additional observations from a re-analysis of the deposited data

Results flagged for a closer look

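The effect of genotype on Slc16a13, the deleted gene, differed between tissues, with an interaction of -6.08 on the log2 scale (SE 0.38, edgeR adjusted p = 5.9e-16). It was called lower in liver, at -5.45, and not called in muscle, at 0.63 (SE 0.21, edgeR adjusted p = 0.48), where the WT libraries held 4 to 22 reads. None of the 7 counted mitochondrial mRNAs had such a difference between tissues by edgeR, DESeq2 or limma-voom, and 0 of them had an unadjusted edgeR p under 0.05.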

How the results depend on the processing

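The number of mRNAs called was 7 of 7 in both tissue comparisons and 0 of 7 in the genotype comparisons and the interaction under every alternative run, mouse as replicate block included (7, 7 and 0), and leaving out each library in turn left 0 called in both genotype comparisons. Signs were less stable where estimates were small. Without the KO livers set apart, the estimates in liver turned to 0.11 for mt-Nd1, 0.10 for mt-Nd2, 0.024 for mt-Nd5, 0.0090 for mt-Nd6 and 0.0063 for mt-Co1, and the interaction to 0.026 for mt-Nd1 and 0.021 for mt-Nd2. With 1 library left out, the liver estimate of mt-Nd1 ranged from -0.070 to 0.052, and the muscle estimates of mt-Nd4 from -0.030 to 0.060 and of mt-Cytb from -0.018 to 0.072. Without a filter, mt-Rnr2 in muscle had -7.1e-05. Shares taken from RPKM were 6.93% in WT liver, 5.96% in KO liver, 13.7% in WT muscle and 14.4% in muscle labelled KO, and per read on other genes without the 20 most abundant they were 6.76, 5.96, 15.2 and 15.9%. By RPKM mt-Co1 held 26.8, 25.7, 23.8 and 23.8% of the summed mRNAs in these groups, and without mt-Nd6 it held 34.4% in WT liver, 31.3% in WT muscle and 31.3% in muscle labelled KO. Scaling by reads on other genes took the median of all genes from 0.02 to -0.18 (liver minus muscle, labelled KO), and no filter took it to -0.21. Removal of gene length took the median from 0.00 to -0.18 in WT mice. Relative to these shifts the 7 mRNAs were still lower in liver. Of the genotype comparisons within a tissue, mt-Nd5 in liver had the widest interval, where 2 SE with all KO livers spanned -0.86 to 0.15. Other settings with all KO livers also moved small, uncalled liver estimates by over 1.5 times, to -0.26 for mt-Nd6, -0.19 for mt-Cytb, -0.18 for mt-Nd2, -0.15 for mt-Nd4 and -0.10 for mt-Nd1 at the furthest from 0. Removal of gene length took the tissue differences of mice labelled KO to -1.30 for mt-Nd2, -1.50 for mt-Nd4, -1.33 for mt-Cytb and -1.45 for mt-Co1.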
